A study of Mus musculus with 24 samples.

Results

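Transcripts of 7 genes of the leukaemia inhibitory factor (LIF) pathway and of the Pim kinases were followed along the route from mouse pluripotent cells to germ cells. The genes were Lifr, Il6st, Stat3, Socs3, Pim1, Pim2 and Pim3, and every probe set listed in the array annotation for 1 of these symbols alone was taken, which gave 20 of the 45101 probe sets of the array and 7 of the 18193 genes that could be named. All samples were of the strain C57BL/6. Unamplified arrays held embryonic stem cells (ESCs), kept without feeders in 2i+LIF, a medium with kinase inhibitors and LIF, and epiblast-like cells (EpiLCs) at days 1, 2 and 3 of their induction from these ESCs. They also held epiblast stem cells (EpiSCs), made from E5.75 epiblast (E stands for day of development), and PGCLCs (primordial germ cell-like cells), for which day 2 EpiLCs were the starting cells. Arrays made after 22 cycles of PCR from 5 ng of total RNA, the amount in 500 cells, held ESCs, day 2 EpiLCs, EpiSCs and PGCLCs again, together with 2 embryo samples: epiblast before gastrulation, E5.5 to 6.0, and E9.5 primordial germ cells (PGCs). The sources used here do not give the factors that the cultures other than ESCs received, or how PGCLCs and PGCs were isolated. Each of the 12 groups had 2 arrays, called biological replicates in the labels. Separate cultures or litters are not named, and the p-values then cover only the spread between these samples, which may be technical.

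LIF binds a receptor made of the subunits encoded by Lifr and Il6st (gp130), and Janus kinases bound to the receptor then phosphorylate the transcription factor Stat3, which enters the nucleus. Socs3 is a direct target of Stat3 and inhibits the receptor complex, so it closes a negative feedback loop and is widely used as a readout of the pathway. In mouse ESCs this pathway holds back differentiation, whereas cells of the postimplantation epiblast and EpiSCs are maintained by activin and FGF instead. The Pim genes encode serine/threonine kinases that are active without an activating phosphorylation step, promote survival and growth, and are controlled mainly through their transcription, for which STAT factors are one known input.

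Values are intensities on a linear scale, and array medians lay between 41.1 and 49.2 on unamplified and between 36.2 and 40.03 on amplified arrays. Both kinds of array were fitted apart with limma. A difference between groups was called where its p-value, adjusted over all genes tested, was under 0.05 and its log2 size was at least 1, and differences are log2 ± standard error (SE) with 2 arrays per group. Marker genes followed the labels: the summed intensity of 5 naive ESC markers was highest in ESCs, at 12403 and 12697 without amplification, and 6 germ cell markers summed to 14685 to 20387 in PGCLCs and PGCs on amplified arrays, against at most 4106 in the other groups there. The 5 markers of the postimplantation epiblast summed to 12843 to 17801 in the amplified epiblast and day 2 EpiLC arrays and to 5857 to 6880 in the EpiSC ones. The RNA came from whole samples, in which fewer cells with a transcript and less transcript per cell cannot be told apart.

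Lifr, Il6st, Stat3 and Socs3 were high in ESCs, low in day 2 EpiLCs and high again in PGCLCs. Stat3 and Socs3 were also high in EpiSCs, and both were low in the epiblast and in E9.5 PGCs. Pim2 was the other way round for most groups, with a high level in EpiLCs, EpiSCs and the epiblast and a low level in ESCs, PGCLCs and PGCs. All 7 genes passed the filter on dim genes in both sets of arrays.

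**Figure D1:**
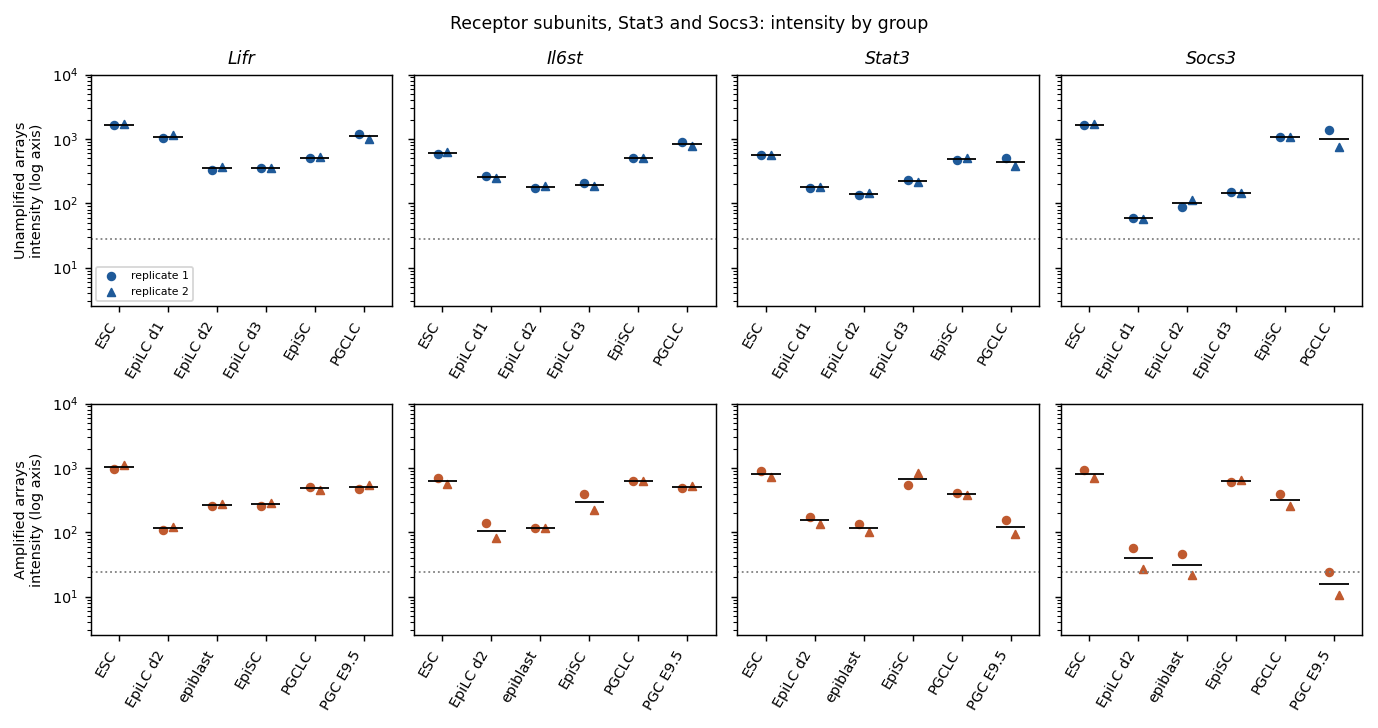
Intensity of Lifr, Il6st, Stat3 and Socs3 (log axis) in each group on unamplified (top row) and amplified (bottom row) arrays; circles and triangles are replicates 1 and 2, black bars the mean of the log2 values, and the dotted line the filter level, 28.1 or 24.04. Socs3 spans the widest range of these 4 genes, from 57.7 to 1693 on unamplified and from 10.4 to 927 on amplified arrays, and in EpiSCs both of its arrays in either set lie at 597 or above.

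For the receptor gene Lifr the 2 ESC arrays gave 1619 and 1677 without amplification, day 1 EpiLCs 1048 and 1131, and day 2 EpiLCs 333 and 363. Day 3 EpiLCs followed with 351 and 355, EpiSCs with 498 and 520, and PGCLCs with 1185 and 1003. ESCs stood above every other group, PGCLCs overlapped with day 1 EpiLCs, and days 2 and 3 of EpiLCs overlapped at the bottom. On amplified arrays Lifr measured 971 and 1128 in ESCs, 109 and 120 in day 2 EpiLCs, 261 and 282 in EpiSCs, 258 and 276 in the epiblast, 513 and 452 in PGCLCs and 469.6 and 547 in E9.5 PGCs. Here ESCs were again highest, PGCs and PGCLCs overlapped, EpiSCs and the epiblast overlapped, and day 2 EpiLCs were lowest. Another of the 3 probe sets of Lifr passed the filter but was dim. It exceeded the filter level on 6 of 12 unamplified and 4 of 12 amplified arrays, with a highest value of 53.2. From day 2 to day 3 of EpiLCs it was called higher, at 1.41, where the main one differed by 0.02.

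Il6st, the gene of the signal-transducing subunit gp130, ran from 593 and 625 in ESCs through 262 and 249 at day 1 to 173 and 186 at day 2 and 207 and 183 at day 3 on unamplified arrays. EpiSCs had 499 and 513, and PGCLCs had 906 and 777. PGCLCs stood above ESCs and EpiSCs without overlap, while days 2 and 3 overlapped. With amplification Il6st measured 704 and 557 in ESCs, 139 and 80.3 in day 2 EpiLCs, 390.0 and 221 in EpiSCs, 118 and 116 in the epiblast, 618 and 616 in PGCLCs and 490.0 and 516 in PGCs. The 2 germ cell groups and ESCs were high, EpiSCs were intermediate with replicates far apart (log2 SD 0.58), and the epiblast overlapped with day 2 EpiLCs. Of the 4 probe sets of Il6st only the main one passed the filter on amplified arrays, and the 3 that passed without amplification fell together from ESCs to day 2, with differences of -2.19 to -1.76.

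Stat3, the transcription factor of the pathway, measured 562 and 563 in ESCs, 175 and 179 at day 1, 136 and 146 at day 2 and 229 and 214 at day 3 on unamplified arrays. In EpiSCs it was at 475 and 510.0 and in PGCLCs at 506 and 383. ESCs were highest, EpiSCs and PGCLCs overlapped, and EpiLCs lay below all of these, lowest at day 2. Amplified arrays gave 899 and 727 in ESCs, 176 and 137 in day 2 EpiLCs, 540 and 839 in EpiSCs, 135 and 103 in the epiblast, 408 and 386 in PGCLCs and 155 and 94.5 in E9.5 PGCs. The 3 high groups and the 3 low groups did not overlap, and among the low ones PGCs overlapped with both day 2 EpiLCs and the epiblast. The 4 probe sets of Stat3 did not all move alike. On unamplified arrays 3 of them fell from ESCs to day 2 EpiLCs, with differences of -2.48 to -1.99, while the other stayed between 40.1 and 63.6 on all 12 arrays.

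Socs3, the feedback inhibitor, fell furthest. It measured 1640 and 1693 in ESCs, 58.9 and 57.7 at day 1, 87.7 and 113 at day 2 and 149 and 143 at day 3. EpiSCs were at 1080 and 1084 and PGCLCs at 1355 and 752. The groups thus formed a high class of ESCs, EpiSCs and PGCLCs and a low class of EpiLCs at all 3 days, with the lowest value at day 1. On amplified arrays ESCs had 927 and 704, day 2 EpiLCs 58.0 and 27.4, EpiSCs 597 and 649, the epiblast 46.2 and 21.5, PGCLCs 395 and 258 and E9.5 PGCs 23.8 and 10.4. Both PGC arrays lay under the filter level of 24.04, and day 2 EpiLCs, the epiblast and PGCs formed a chain of overlapping groups. All 3 probe sets of Socs3 gave this pattern, with r of at least 0.987 between the main one and the other two over the 12 arrays of either set.

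A STAT motif was also searched before the starts of the members. The motif TTCNNNGAA, which reads alike on both strands, was searched in the 250 bases before each start in RefSeq's promoter table for GRCm38.p6, in 9 windows of the 7 genes and in all 32851 windows. It was present in 7.02% of all windows and, among the 9 of the members, in 1, that of Socs3. With so few windows 1 match does not set Socs3 apart. The windows of Socs3 and Lifr lie within the annotated spans of these genes, so any start further upstream was not searched. The match began 154 bases before the start, at chr11:117969502-117969530 (minus strand) with 10 bases on either side, and is in capitals below. The other windows lack these letters within 250 bases, which says nothing about binding there.
Socs3 STAT motif: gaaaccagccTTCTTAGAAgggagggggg

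Pim2 moved most among the kinases. It measured 71.2 and 64.0 in ESCs, 1669 and 1768 at day 1, 2550 and 2435 at day 2 and 1012 and 1055 at day 3. EpiSCs had 2295 and 2335 and PGCLCs 54.9 and 63.6. All 4 groups of EpiLCs and EpiSCs stood far above ESCs and PGCLCs, and no neighbours in the order of levels overlapped. With amplification Pim2 was at 169 and 145 in ESCs, 3555 and 5776 in day 2 EpiLCs, 3537 and 4551 in EpiSCs, 4982 and 6785 in the epiblast, 102 and 94.95 in PGCLCs and 102 and 130 in PGCs. The epiblast, day 2 EpiLCs and EpiSCs overlapped at the top, and PGCs and PGCLCs overlapped at the bottom. Pim2 has a single probe set listed for it alone, so no other probe set stands beside these values.

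The 250 bases before the start of Pim2 are shown because this gene had the largest difference of the 7. They were also chosen because the POU factor gene Pou3f1 was at place 3 among the genes most similar to it, as given further on. They hold the octamer ATGCAAAT, a motif bound by POU factors, and its reverse ATTTGCAT, in capitals here, which begin 123 and 202 bases before the start. Of the 32851 windows, 1.6% held at least 1 octamer on either strand and 0.0974% at least 2. This search was chosen after the sequence of Pim2 had been seen, and a match is a description of the letters and not of binding. Any part of Pou3f1 or another POU factor in the level of Pim2 was not tested. The sequence is from RefSeq, GRCm38.p6, chrX:7878056-7878305, plus strand.
Pim2 upstream: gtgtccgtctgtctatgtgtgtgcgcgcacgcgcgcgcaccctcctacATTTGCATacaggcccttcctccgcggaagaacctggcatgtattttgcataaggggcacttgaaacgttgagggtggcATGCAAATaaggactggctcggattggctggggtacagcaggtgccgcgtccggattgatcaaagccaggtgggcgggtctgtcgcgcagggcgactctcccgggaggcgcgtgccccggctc

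Pim1 climbed through EpiLC induction. It measured 1147 and 1219 in ESCs, 1437 and 1465 at day 1, 2861 and 2561 at day 2 and 4700 and 4572 at day 3, against 968 and 960.5 in EpiSCs and 2526 and 2704 in PGCLCs. Day 3 was highest, day 2 and PGCLCs overlapped, and EpiSCs were lowest. On amplified arrays its main probe set gave 160 and 61.4 in ESCs, 362 and 99.3 in day 2 EpiLCs, 38.1 and 3.01 in EpiSCs, 119 and 53.3 in the epiblast, 324 and 100.2 in PGCLCs and 178 and 232 in PGCs. Replicate 1 exceeded replicate 2 in 5 of these 6 groups, the log2 SD reached 2.25 in EpiSCs, and every neighbour in the order except EpiSCs overlapped. The other probe set of Pim1 stayed between 52.8 and 68.7 on all 12 amplified arrays, whereas without amplification it ran from 188 to 1729 with r = 0.98 to the main one. The amplified arrays thus hold no other probe set that follows the main one of Pim1.

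Pim3 varied least. Its unamplified values were 1318 and 1184 in ESCs, 783 and 785 at day 1, 773 and 743 at day 2, 1825 and 1842 at day 3, 902 and 790.0 in EpiSCs and 975 and 1011 in PGCLCs. Day 3 was highest, ESCs came next, and days 1 and 2 were lowest and nearly met. On amplified arrays the lowest value was 206, in EpiSCs, and the highest 809.5, in PGCLCs, all neighbours overlapped, and replicate 1 was above replicate 2 in 6 of 6 groups.

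**Figure D2:**
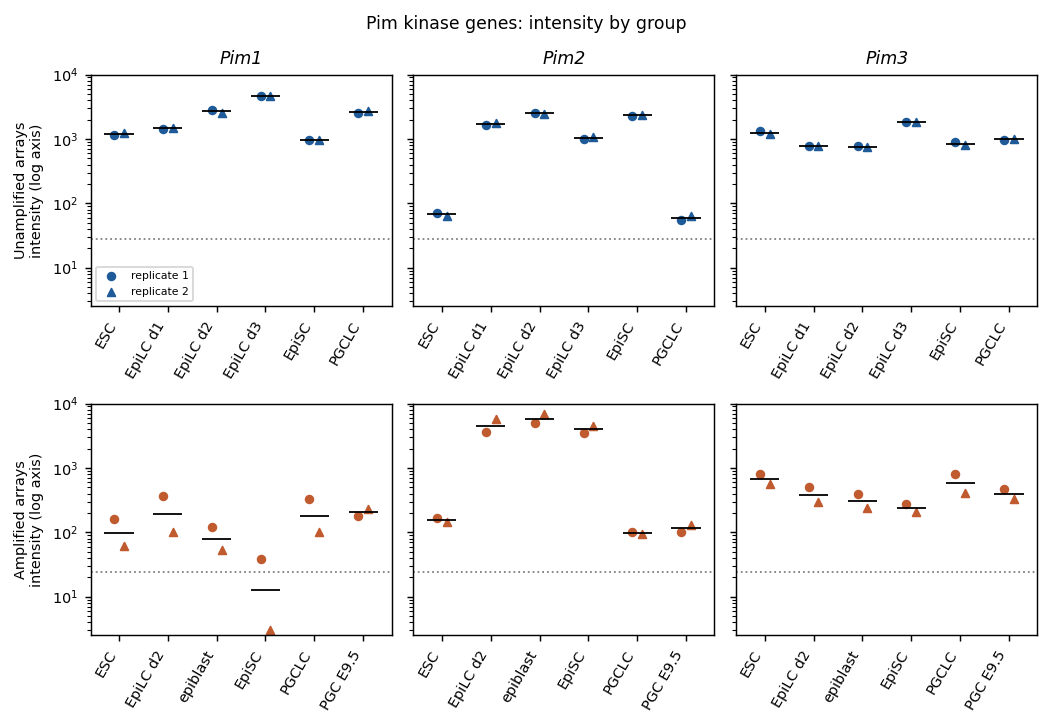
Intensity of Pim1, Pim2 and Pim3 (log axis) by group, drawn as for the receptor genes, with unamplified arrays in the top row and amplified arrays in the bottom row. Pim2 separates EpiLCs, EpiSCs and the epiblast, at 1012 or above on every array, from ESCs, PGCLCs and PGCs, at 169 or below, while the 2 replicates of Pim1 lie far apart on amplified arrays.

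The change from ESCs to EpiLCs asked how the pathway behaves as cells leave the ESC state. Socs3 fell by 4.84 ± 0.21 within the first day, a fold of 28.6 (adjusted p = 4.21e-08), Stat3 fell by 1.67 ± 0.12 and Il6st fell by 1.25 ± 0.10. Pim2 rose by 4.67 ± 0.08, a fold of 25.4 (adjusted p = 1.31e-10). These were the 4 of 7 members called at day 1, where 12% of the 14934 genes tested were called, and Lifr differed by -0.60 ± 0.08. From day 1 to day 2 Lifr fell by 1.65 ± 0.08 (adjusted p = 5.13e-07) and was the 1 member called, against 8.04% of all genes. The larger part of the fall of Lifr thus came 1 day after that of Socs3, Stat3 and Il6st. Of these Stat3 differed by -0.32 ± 0.12 and Socs3 by 0.77 ± 0.21 in this second step, both short of the threshold. From day 2 to day 3 Pim2 fell by 1.27 ± 0.08 and Pim3 rose by 1.28 ± 0.07, which made 2 of 7 against 4.26%. Pim1 differed by 0.30 ± 0.06, 0.90 ± 0.06 and 0.78 ± 0.06 in the 3 steps, each under the size threshold. With the mean of its probe sets the last step of Pim1 was called at 1.01 and that of Pim3 was not, at 0.99.

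Over both days together 6 of 7 members were called, against 16.5% of all genes. Lifr fell by 2.25 ± 0.08, Il6st fell by 1.76 ± 0.10, Stat3 fell by 1.99 ± 0.12 and Socs3 fell by 4.07 ± 0.21. Pim2 rose by 5.21 ± 0.08, a fold of 36.9, and Pim1 rose by 1.20 ± 0.06. Amplified arrays gave the same directions for these genes. There 5 of 7 were called, against 8.51%: Lifr was at -3.19 ± 0.22, Il6st at -2.56 ± 0.34, Stat3 at -2.38 ± 0.32 and Socs3 at -4.34 ± 0.51, while Pim2 rose by 4.86 ± 0.30 and Pim1 differed by 0.94 ± 1.03. The fall of Il6st was -0.85 and not called when its 4 probe sets were averaged, 3 of which were under the filter on these arrays. The median over the 7 members was -1.76 without and -2.38 with amplification, and over all genes tested 0.01 and 0.02.

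Of 53 other genes of the pathway and of Pim signalling, chosen for their roles, 50 were on the array and 48 were tested. At day 2 of EpiLC induction 5 of them were called higher and 8 lower without amplification, where 8.96% of all genes were called higher and 7.5% lower. The falls were led by genes known as targets of LIF and STAT3 in ESCs: Klf4, a naive pluripotency factor, at -6.15 ± 0.24, Tfcp2l1, which sustains self-renewal downstream of Stat3, at -5.47 ± 0.08, Klf5 at -3.29 ± 0.14 and Bcl3, a partner of NF-kappaB, at -2.95 ± 0.35. Myc, of the same list, rose by 2.97 ± 0.29. In all 5 of 10 such targets fell and 2 rose, with a median of -1.70. The 15 inhibitors and adaptors had no call, among them Socs1, Socs2 and the tyrosine phosphatase genes Ptpn6 and Ptpn11. Of 5 ligand genes tested 1 was called higher, Il11, at 1.13 ± 0.41, and 1 lower, the oncostatin M gene Osm, at -2.15 ± 0.21. Il11 was at 5.75 in ESCs, and its means in ESCs and in day 2 EpiLCs both lay under the filter level of 28.1. The value of 1.13 is therefore no measured rise. Amplified arrays gave 1 rise, Myc, and 8 falls among the 48 genes, against 4.27% and 4.24% of all genes, and the targets that fell were Klf4, Tfcp2l1, Klf5 and Bcl3.

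EpiSCs were compared with day 2 EpiLCs, and here Socs3, Stat3 and Il6st were higher on both kinds of array and Lifr on amplified arrays. Without amplification 4 of 7 members were called, against 18.9% of all genes. Socs3 was higher in EpiSCs by 3.45 ± 0.21, a fold of 10.9 (adjusted p = 2.72e-07), Stat3 by 1.80 ± 0.12 and Il6st by 1.49 ± 0.10. Pim1 was lower, at -1.49 ± 0.06. Lifr differed by 0.55 ± 0.08, Pim2 by -0.11 ± 0.08 and Pim3 by 0.16 ± 0.07, and these were not called. On amplified arrays 5 of 7 were called, against 12.5%: Socs3 by 3.97 ± 0.51, Stat3 by 2.12 ± 0.32, Il6st by 1.47 ± 0.34 and Lifr by 1.24 ± 0.22, and Pim1 at least 7.89-fold lower (adjusted p = 0.034). Only Socs3 was called in a fit of these 2 groups alone. The calls of Il6st and Pim1 were both lost without day 2 EpiLC replicate 2, where Il6st was at 1.07, and that of Pim1 also without EpiSC replicate 2 or EpiLC replicate 1, at -2.31 and -2.97. Il6st was at 0.40 with the mean of its probe sets, and Pim1 lost its call with the floor at the 40th percentile, at -2.59, or with no filter.

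Transcripts of fibroblasts moved with this comparison. The 10 fibroblast markers summed to 15507 and 15623 in the unamplified EpiSC arrays, with all 10 above the filter on both, against 1482 to 4585 in the other groups, and to 4281 and 7347 in the amplified ones, against at most 2168 elsewhere. The Col1a1 and Dcn genes belong to that list, and their part in the values of Stat3, Socs3 and Il6st in EpiSCs was not tested. Of the 48 pathway genes 10 were higher and 6 lower in EpiSCs without amplification, against 12.4% and 6.44% of all genes. Cntfr, a receptor gene for a cytokine that also signals through gp130, was higher by 3.54 ± 0.19, the immediate early gene Junb by 3.32 ± 0.18 and Stat5b by 2.77 ± 0.26. Nr0b1, which limits differentiation of ESCs, was lower, with a difference of -4.91 ± 0.41. The LIF targets were therefore split, with 1 higher and 4 lower of 10 and a median of -0.01. Tfcp2l1, shown after its values had been seen, was at 76.2 and 75.4 in EpiSCs against 102 and 112 in day 2 EpiLCs. Amplified arrays gave 7 higher and 3 lower among the 48, against 8.61% and 3.86%.

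PGCLCs were compared with the day 2 EpiLCs they were induced from. The 4 genes from receptor to feedback were higher together and Pim2 was lower, which made 5 of 7 members called, against 20.6% of all genes. Socs3 was higher by 3.35 ± 0.21, Il6st by 2.22 ± 0.10, Lifr by 1.65 ± 0.08 and Stat3 by 1.64 ± 0.12. Pim2 fell by 5.40 ± 0.08, a fold of 42.2 (adjusted p = 2.51e-11). Pim1 differed by -0.05 ± 0.06 and kept the level of day 2 EpiLCs within the overlap of the arrays. On amplified arrays 5 of 7 were called again, against 12.7%, with Socs3 at 3.0 ± 0.51, Il6st at 2.54 ± 0.34, Lifr at 2.07 ± 0.22, Stat3 at 1.36 ± 0.32 and Pim2 at -5.52 ± 0.30. Leaving out any single one of the 4 arrays ended the call of Stat3, with differences of 1.18 to 1.54. Averaging the probe sets ended it too, at 0.44, and ended that of Il6st, at 0.57.

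**Figure D3:**
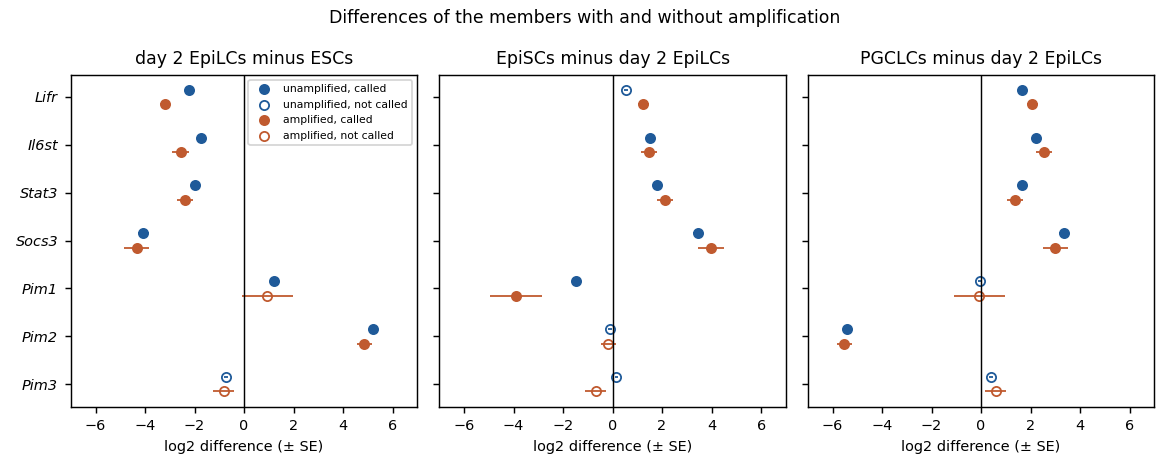
Log2 differences of the 7 genes (± SE, 2 arrays per group) for day 2 EpiLCs against ESCs, and for EpiSCs and PGCLCs each against day 2 EpiLCs, on unamplified (blue) and amplified (orange) arrays; filled points were called and open points were not. The 4 genes from Lifr to Socs3 lie left of 0 in the first panel and right of 0 in the other two, and Pim2 lies near 5.21 and -5.40 in the outer panels and near 0 in EpiSCs.

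Against ESCs, PGCLCs differed in 1 of 7 members, Pim1, which was higher by 1.14 ± 0.06, and 20.6% of all genes were called. Lifr was at -0.60 ± 0.08, Socs3 at -0.72 ± 0.21, Stat3 at -0.35 ± 0.12, Il6st at 0.46 ± 0.10 and Pim2 at -0.19 ± 0.08. Without PGCLC replicate 1 the difference of Socs3 was -1.15 and was called, since its 2 PGCLC arrays were at 1355 and 752. Among the LIF target genes, in PGCLCs 6 of 10 had risen from day 2 EpiLCs, Tfcp2l1 by 3.02 ± 0.08, Junb by 2.85 ± 0.18, Klf5, Bcl3, Sall4 and Klf4, and 2 had fallen, Myc at -2.85 ± 0.29 and Gbx2 at -1.28 ± 0.27, with a median of 1.36. Compared with ESCs, 1 of 10 was higher and 4 were lower, against 9.41% and 11.2% of all genes, with Klf4 at -5.01 ± 0.24 and Tfcp2l1 at -2.45 ± 0.08. Across all 48 pathway genes 13 were higher and 6 lower than in day 2 EpiLCs, where 8.78% of all genes were called higher and 11.9% lower, among the lower ones the adaptor gene Gab1, at -2.65 ± 0.20. Amplified arrays gave 9 higher and 4 lower, against 6.47% and 6.25% of all genes.

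The epiblast of the embryo was the reference for day 2 EpiLCs and EpiSCs on amplified arrays. Day 2 EpiLCs differed from it in 1 of 7 members, where 0.961% of the 15608 genes tested were called. Lifr was lower in EpiLCs, at -1.22 ± 0.22 (adjusted p = 0.0324), and this call ended without any single one of the 4 arrays, at -1.29 to -1.15, when only these groups were fitted, and when its probe sets were averaged, at -0.57. Il6st at -0.15 ± 0.34, Stat3 at 0.40 ± 0.32, Socs3 at 0.34 ± 0.51 and Pim2 at -0.36 ± 0.30 were not called. Of the 48 pathway genes 1 was called, Gab1, which links gp130 and growth factor receptors to the ERK pathway. It measured 1619 and 1551 in day 2 EpiLCs and 204 and 202 in the epiblast, a difference of 2.96 ± 0.24 (adjusted p = 0.00071), and 1850 and 2320 in ESCs. Visceral endoderm markers summed to 910 and 2882 in the epiblast arrays, against 124 to 573 on the other amplified arrays, and their part in these differences was not tested.

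EpiSCs differed from the epiblast in 3 of 7 members, against 11.7% of all genes. Socs3 was higher by 4.30 ± 0.51, a fold of 19.8 (adjusted p = 0.00065), and Stat3 by 2.52 ± 0.32. Il6st was higher by 1.33 ± 0.34, a call lost without EpiSC replicate 1, at 0.92, without either epiblast array, at 1.34 and 1.32, with quantile normalization, at 1.14, and when its probe sets were averaged, at 0.14. In a fit of these 2 groups alone Stat3 had an adjusted p of 0.0505 and only Socs3 was called. Lifr differed by 0.02 ± 0.22, and its other tested probe set by 1.66, which was not called. Pim1 differed by -2.65 ± 1.03 and was not called, but with the replicate number as a block, which pairs the amplified arrays, its adjusted p was 0.0175. Without EpiSC replicate 1 it was at -4.25 and called, without EpiSC replicate 2 it was at -1.06, and the other probe set of Pim1 gave -0.16. Among the 48 pathway genes 8 were higher and 1 lower, against 8.97% and 2.71% of all genes, led by Junb at 3.85 ± 0.44, Jak2, the gene of a Janus kinase of the receptor, at 2.94 ± 0.25 and Stat5b at 2.83 ± 0.51, with Myc lower at -2.53 ± 0.39. In the epiblast Jak2, at 20.2, and Stat5b, at 21.6, lay under the filter level of 24.04. They were thus at least 6.43-fold and 6.38-fold higher in EpiSCs. The fibroblast markers given above were high in these EpiSC arrays too.

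The step from the epiblast to E9.5 PGCs was set beside the step from day 2 EpiLCs to PGCLCs. In the embryo 2 of 7 members were called, against 10.5%. Il6st was higher in PGCs by 2.10 ± 0.34 and Pim2 lower, with -5.66 ± 0.30, a fold of 50.7 (adjusted p = 1.47e-05). Lifr, at 0.93 ± 0.22, was under the size threshold, Stat3 was at 0.04 ± 0.32 and Socs3 at -1.0 ± 0.51. The other tested probe set of Lifr, the dim one, was called higher, at 1.94. Averaging its probe sets left Il6st at 0.50 and not called. Pathway genes called higher in PGCs were led by Tfcp2l1, at least 13.7-fold, Gbx2, at least 9.5-fold, Jak2, at least 6.85-fold, and Klf5, at least 3.94-fold. In the epiblast each of these lay under the filter level. Those called lower were led by Myc, at -2.91 ± 0.39, and Stat6, at -2.66 ± 0.36. In the amplified step to PGCLCs Tfcp2l1, Klf5 and Jak2 were also called higher, at 5.18, 2.36 and 2.09. Gbx2 was at -1.04 there and not called. Erythroid markers summed to 3931 and 10951 in the PGC arrays, with 2 of the 4 on the array above the filter on both, against at most 343 on any other array, and their part in the PGC values was not tested.

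PGCLCs and E9.5 PGCs differed in 2 of 7 members, against 2.9% of all genes. Socs3 was at least 13.3-fold higher in PGCLCs (log2 4.34 ± 0.51, adjusted p = 0.00282) and Stat3 was higher by 1.72 ± 0.32 (adjusted p = 0.0234). Lifr, at -0.07 ± 0.22, Il6st, at 0.30 ± 0.34, and Pim2, at -0.22 ± 0.30, were not called. The receptor genes and Pim2 thus had overlapping or near levels in both kinds of germ cell, while Stat3 and Socs3 did not. The call of Stat3 was lost without PGCLC replicate 1, PGCLC replicate 2 or PGC replicate 2, at 1.36 to 1.75, and when its probe sets were averaged, at 0.83. Neither gene was called in a fit of these 2 groups alone, where Socs3 had an adjusted p of 0.076. Endothelial markers summed to 1702 and 1722 in the PGCLC arrays, with 6 of 7 above the filter on both, against 586 to 796 in PGCs, with 5 of 7, and at most 1247 on the other amplified arrays, and their part in these differences was not tested. Of the 48 pathway genes 5 were higher in PGCLCs and 0 lower, against 1.56% and 1.33% of all genes. Bcl3 was at least 10.4-fold and Lif at least 1.98-fold higher (fitted log2 of Lif 1.88 ± 0.38). Lif was at 12.9 in PGCs, under the filter level of 24.04. Junb was higher by 2.71 ± 0.44, Stat6 by 1.81 ± 0.36 and Gab1 by 1.36 ± 0.24, the last being the only adaptor among the 5.

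The difference between both steps was tested itself, and 0 of 7 members were called in the limma fit, against 0.513% of all genes. At an unadjusted p under 0.05 there were 3, Lifr, Stat3 and Socs3. For Lifr the main probe set gave 1.14 and the other tested one 0.26, and neither was called. Socs3 changed by 3.0 in culture and by -1.0 in the embryo, a difference of 4.0 ± 0.73 with an adjusted p of 0.055. Since both PGC arrays and 1 epiblast array of Socs3 lay under the filter level, the change in the embryo lies near background. With the floor at the 40th percentile the difference was 3.42. Within replicate number 1 this difference was 3.73 and within number 2 it was 4.28. With the replicate number as a block, which pairs the amplified arrays, the adjusted p was 0.00644 and Socs3 was called. Over 10 alternatives the adjusted p lay between 0.00644 and 0.108, with Socs3 called under 5 of them, and with 1 array left out between 0.0648 and 0.216. The 3 probe sets of Socs3 gave differences of 3.13 to 4.20, of which 1 was called. Pim2 fell by a like amount on both sides, -5.52 and -5.66, with a difference of 0.14 ± 0.42.

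**Figure D4:**
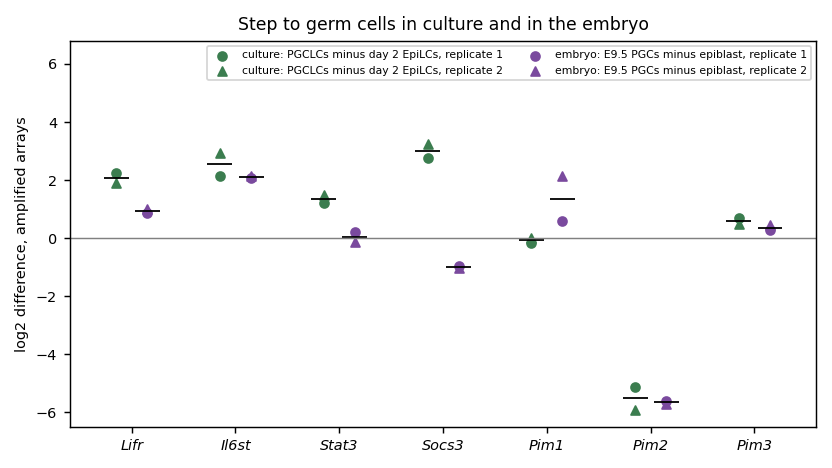
Log2 differences of the 7 genes on amplified arrays for the step to germ cells in culture (PGCLCs minus day 2 EpiLCs, green) and in the embryo (E9.5 PGCs minus epiblast, purple); circles and triangles are differences within replicate numbers 1 and 2 and bars their means. Socs3 lies at 2.77 and 3.24 in culture and at -0.96 and -1.04 in the embryo, and Pim2 falls alike on both sides.

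For the main probe sets, the differences called in either set had the same direction in the other. In the 3 comparisons measured on both kinds of array, the difference between amplified and unamplified arrays was called for 0 of 7 members, against 0.852% of all genes for the change from ESCs to day 2 EpiLCs, 0.295% for that from day 2 EpiLCs to EpiSCs and 0.845% for that to PGCLCs. The nearest was Lifr, whose fall from ESCs to day 2 EpiLCs was larger with amplification, with a difference of -0.95 ± 0.21 and an adjusted p of 0.0454, under the size threshold. It was called with quantile normalization, at -1.001, and without amplified day 2 EpiLC replicate 2, at -1.02. Pim1 in EpiSCs minus day 2 EpiLCs, at -2.42 ± 1.13, was called without amplified EpiSC replicate 1, at -4.01. The other probe set of Pim1, flat on amplified arrays, was called in 2 of the 3, at -1.18 for the change from ESCs to day 2 EpiLCs and at 1.66 for that to EpiSCs. Il6st was called in the third, at -1.71, when its probe sets were averaged. At an unadjusted p under 0.05, in limma, there were 2 members in the first comparison, 2 in the second and 0 in the third. All 46 differences called within a set of arrays had the same sign within both replicate numbers, and 45 had a size of at least 1 in each, the exception being Il6st in EpiSCs minus the epiblast, at 1.73 and 0.93.

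Profiles over the 12 groups were compared as Pearson's r of log2 group means, each set centred on its own mean, over 6143 genes that passed the filter and spanned at least 1 log2 in both sets. The 12 points share their arrays and the 4 cell types measured in both sets, so r is a description and carries no p-value. Stat3 and Socs3 were each other's most similar gene, with r = 0.974. Next for Stat3 came Tnip2 (0.960) and Tom1l2 (0.940), and for Socs3 Tom1l2 (0.942) and Eogt (0.927). Without the 2 EpiSC groups Tnip2 (0.983) stood above Socs3 (0.969) for Stat3, and by Spearman's rank correlation it did so too. By that measure Tom1l2 was at place 95 for Stat3 and at place 103 for Socs3. Among the members Lifr and Il6st followed with 0.795, while Il6st and Pim2 had -0.847 and Lifr and Pim2 -0.769. Il6st was most similar to Zc3hav1 (0.989), Gjc1 (0.989) and the interferon-induced membrane protein gene Ifitm1 (0.967), and Lifr to Jam2, Dlgap3 and Abca1 (0.932 to 0.917). For Pim2 the 3 most similar genes were Lyzl1 (0.980), Zfp618 (0.979) and Pou3f1 (0.976), a POU transcription factor gene of the postimplantation epiblast, which came first, with r = 0.994, without the 2 EpiSC groups. Pim1 was most similar to Ide, Mettl4 and Myh11 (0.941 to 0.920). Pim3, with Plekhf2, Creg1 and Tbc1d13 at 0.847 to 0.824, had the lowest values of all members. The ranks of Pim1 rested most on EpiSCs: without them Myh11 went from place 3 to place 318. Ranks of other members moved as well. For Pim3, Plekhf2, Creg1 and Tbc1d13 went to places 10, 60 and 54, and for Lifr, Jam2, Dlgap3 and Abca1 went to places 7, 11 and 8.

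**Figure D5:**
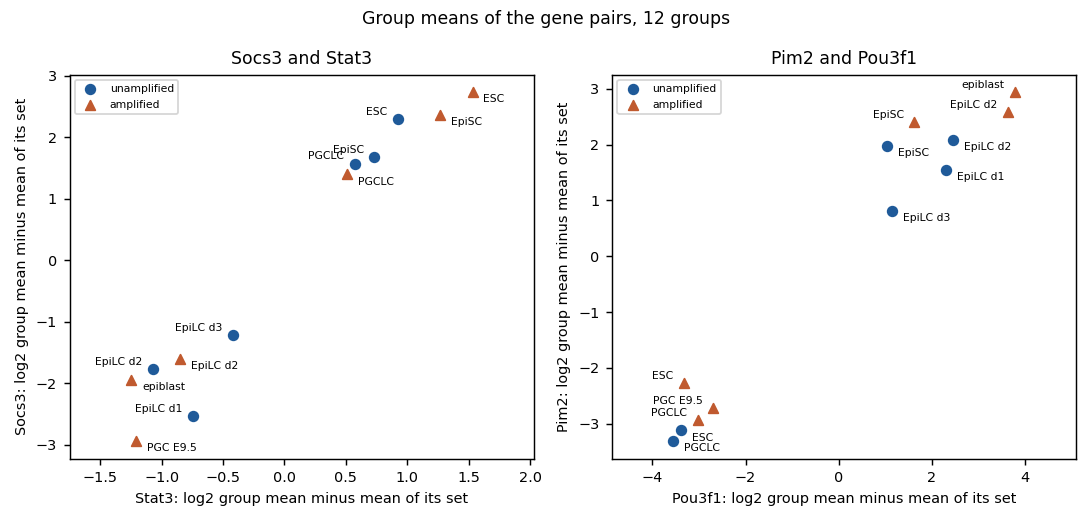
Log2 group means of Socs3 against Stat3 (left) and of Pim2 against Pou3f1 (right), each centred on the mean of its set of arrays; blue circles are the 6 unamplified and orange triangles the 6 amplified groups. On the left ESCs, EpiSCs and PGCLCs lie above 0 on both axes, and on the right EpiLCs, EpiSCs and the epiblast lie high and ESCs, PGCLCs and PGCs low for Pim2.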

How the data were processed

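Values are the intensities the authors deposited, linear and ranging from 1 to 17519, 1 for each probe set of an array. RNA was extracted with Qiagen RNeasy and, for the amplified set, amplified by PCR, per the labels' protocols; the sources used here name no software or normalization for these intensities. Log2 medians of the arrays of a set spanned 0.26 (unamplified) and 0.15 (amplified), under a limit of 0.5, and values were used as deposited. Of the probe sets, 34945 were listed for 1 symbol, 932 for several and 9160 were not listed. Each gene was represented by the probe set with the highest mean over 24 arrays.

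Before log2 was taken, lower intensities were set to the table's 10th percentile, 4.2. Genes were tested if 2 or more of 12 arrays exceeded their set's 40th percentile, 14934 unamplified, 15608 amplified and 14553 in both. limma 3.58.1 in R 4.3.3 fitted 1 mean per group (6 residual degrees of freedom, 12 for the 24-array fit of amplification), with an intensity trend and Benjamini-Hochberg adjustment over all genes. A fold against a group under the filter was computed against the filter level and written "at least". The smallest exact permutation p of 2 arrays against 2 is 0.33, so single-gene permutation tests were not used; precision is limited by having 2 arrays per group.

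In simulations with 200 changed genes, 89% of log2 changes of 1.5 and 97% of 3 were recovered for day 2 EpiLCs minus ESCs (14934 genes, unamplified, 2 false calls), and 39% and 84% for PGCLCs minus day 2 EpiLCs (15608 genes, amplified, 5 false calls). The simulated noise was independent between arrays, so these figures leave out the pairing of the amplified arrays described next. Replicate numbers, taken from the titles, pair the amplified arrays: deviations of same-numbered arrays correlated above 0.1 in 15 of 15 pairs of groups (median 0.37), against 3 of 15 (median 0.05) for unamplified arrays, which only share a number.

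The members and the lists were chosen with earlier results of these data known. All members are named throughout. Of the pathway list, up to 6 called genes per comparison are named, those with the largest differences whose arrays do not overlap, with exceptions named in the text: the single called ligand genes Il11 and Osm, inhibitor genes with no call, targets that complete a count (Sall4, Gbx2), and Tfcp2l1 in EpiSCs. The 3 most similar genes are named by Pearson's r. Alternatives were the floor, the filter, scaling, the choice of probe set, the arrays in the fit, the variance model, the replicate block and leaving out each array.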

Additional observations from a re-analysis of the deposited data

Results flagged for a closer look

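Bcl3, a pathway gene known as a target of LIF and STAT3 in ESCs, stood out by a difference between its change from day 2 EpiLCs to PGCLCs and that from epiblast to PGCs, tested as such. It measured 25.9 and 35.7 in amplified day 2 EpiLC arrays, 304 and 204 in PGCLCs, 16.8 and 9.31 in the epiblast and 4.48 and 1 in E9.5 PGCs. It was high in PGCLCs alone among these groups, and its epiblast and PGC arrays all lay under the filter level of 24.04. Its fitted change was 3.03 in culture and -1.53 in the embryo, a difference of 4.56 ± 0.66 (limma, adjusted p = 0.0225). Neither embryo group was above the filter level, so -1.53 is no measured change and the size of 4.56 depends on the floor. With the replicate number as a block, which pairs these arrays, the adjusted p was 0.00773. The gene was called under 7 of 9 alternatives, chosen for it after its value was seen, and lost with the floor at the 40th percentile, at 3.03, and with no filter. It was called in 0 of 8 fits with 1 array left out, where the adjusted p ran from 0.0519 to 0.116.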

How the results depend on the processing

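Over 18 comparisons the 7 members gave 126 differences, of which 46 were called. Under every alternative and left-out array 32 of the 46 kept direction and call, and 7 of the 80 uncalled ones were called at least once. With the mean of probe sets the count of members called went from 5 to 3 for PGCLCs minus day 2 EpiLCs (amplified), from 1 to 0 for day 2 EpiLCs minus epiblast, from 2 to 1 for PGCs minus epiblast and PGCLCs minus PGCs, and from 0 to 1 for PGCLCs minus day 2 EpiLCs between amplified and unamplified arrays, where Il6st reversed to -1.71 (adjusted p 0.0288) from 0.32. Il6st also lost its call on amplified arrays in day 2 EpiLCs minus ESCs, at -0.85, EpiSCs minus day 2 EpiLCs, at 0.40, and EpiSCs minus epiblast, at 0.14. In day 3 minus day 2 EpiLCs Pim1 gained a call and Pim3 lost one. With the compared groups alone, which leaves fewer arrays, the amplified counts were 1 for EpiSCs minus day 2 EpiLCs, 0 for day 2 EpiLCs minus epiblast, 1 for EpiSCs minus epiblast and 0 for PGCLCs minus PGCs. The count for the difference between germ cell steps went from 0 to 1, Socs3, with the floor at the 40th percentile, with centred arrays, with quantile normalization, with the mean of probe sets and with the replicate block. The block, which pairs the amplified arrays, also called Pim1 in EpiSCs minus epiblast and changed no other member's call; on unamplified arrays it changed none. Quantile normalization called 1 member, Lifr, in day 2 EpiLCs minus ESCs between amplified and unamplified arrays. The cause of these changes was not tested.

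With 1 array left out, the count of members called changed in at least 1 fit for the following comparisons. On unamplified arrays it changed for PGCLCs minus ESCs. The amplified ones were EpiSCs and PGCLCs each minus day 2 EpiLCs, day 2 EpiLCs and EpiSCs each minus the epiblast, and PGCLCs minus PGCs. Between amplified and unamplified arrays it changed for day 2 EpiLCs minus ESCs and for EpiSCs minus day 2 EpiLCs. Quantile normalization moved the median difference of all genes in EpiSCs minus day 2 EpiLCs from 0.02 to -0.11 (unamplified) and from 0.03 to -0.10 (amplified, with 1127 of 1951 calls higher in place of 1344 of 1947), and in EpiSCs minus epiblast from 0.06 to -0.08, with 1141 of 1712 calls higher there in place of 1400 of 1823. Where 1 array of a group is left out, the other is assumed to vary like the other groups. Genes near or under the filter level have only a bound there. Examples are Socs3 and Lif in PGCs, Bcl3 in PGCs and the epiblast, and Jak2 and Stat5b in the epiblast.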
